A study of Homo sapiens with 8 samples.

Results

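Epithelial-mesenchymal transition (EMT) was followed through 10 genes: the transcription factor genes SNAI1, SNAI2, ZEB1, ZEB2, TWIST1 and TWIST2, and the effector genes VIM, CDH1, CDH2 and FN1. The genes were found by symbol, and all 10 were among the 20323 genes of the deposited table. Levels were measured by RNA sequencing in H2452, an established human cell line labelled as a pleural mesothelioma of biphasic type with a wild-type genotype. One group of 4 libraries came from cells given deoxypodophyllotoxin (DPT), a tubulin-binding lignan from plants, at 20 nM for 48 h. The other group of 4 came from cells given the solvent DMSO for the same time. All cells of both groups were of this 1 line and grew in medium with fetal bovine serum and penicillin/streptomycin, and the series describes the 4 libraries of a group as biological replicates.

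EMT is the process in which cells joined in a sheet lose their junctions and take on a migratory, matrix-producing form. SNAIL, ZEB and TWIST proteins bind E-box sequences and repress epithelial genes, with CDH1, the gene of E-cadherin, as their best known target. A rise of N-cadherin (CDH2), vimentin (VIM), fibronectin (FN1) and fibrillar collagens is the usual mesenchymal readout. Mesothelial cells come from mesoderm and carry features of both states at rest, and the sarcomatoid cells of biphasic mesothelioma lie at the mesenchymal end.

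Expected counts summed to between 14964432 and 17205391 per library, and levels are given as CPM, counts scaled to a normalized library size, of which 1 unit stood for about 15 counts at the lowest depth. The test was edgeR's quasi-likelihood test across 12648 genes, with calls made below an adjusted p of 0.05. On the leading principal component, the libraries DMSO replicate 3 and DPT replicate 2 lay away from the remaining 6. Their mean log2 CPM over 11 interferon-response genes was 7.15 and 6.59, against 9.11 to 9.32 in the others, and over 10 mitosis genes it was 7.68 and 7.78, against 6.88 to 7.09. A model with a term for these 2 libraries and a fit on the other 6 alone were therefore run as well. Because the 2 libraries were picked from these same counts, adjusted p from both of these fits are descriptive. A gene said to pass in them lies below the threshold there, without the error rate that the threshold names. The 30 members, named collagens and genes named from the pathway lists that were called in 8 libraries were all called in the same direction in both, with log2 fold changes that moved by at most 0.03 with the term and 0.20 in the 6 libraries, and their values below are from 8 libraries unless stated. The biological coefficient of variation was 14.9% in the fit without that term and 6.3% with it. Of 9 mesothelial markers, 7 were tested, and their summed level was 152 to 165 CPM in DMSO and 159.8 to 176 CPM in DPT, with ITLN1 at 0 in every library. Most of that sum was BNC1 (94.9 to 122 CPM), and the markers did not move together. UPK3B fell by 1.07 on the log2 scale (SE 0.26, edgeR adjusted p = 0.0271), and MSLN at -0.38 and PDPN at -0.39 passed only outside the 8-library fit, with adjusted p of 0.0196 and 0.00757 with the term. CALB2 and BNC1 also passed outside that fit, but as higher. With the term they rose by 0.61 and 0.19, with edgeR adjusted p of 0.00243 and 0.00528.

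Of the 10 members, 9 passed the filter on low counts, and 2 of those 9 were called: VIM rose and FN1 fell. The background was 11.0% of all tested genes called in either direction, 5.68% higher and 5.29% lower. The median log2 fold change of the 9 was 0.11, against -0.00 over all tested genes. With the term for the 2 libraries 3 members were higher (VIM, SNAI2 and ZEB1) and 2 lower (CDH2 and FN1), against a background of 34.0% (16.9% higher and 17.0% lower). On the other 6 libraries alone, SNAI1 and ZEB2 were higher as well, which made 5 higher and 2 lower against a background of 34.1% (17.0% higher and 17.1% lower). The transcription factors called in either alternative were all higher, while the effectors called were higher for VIM and lower for CDH2 and FN1.

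**Figure D1:**
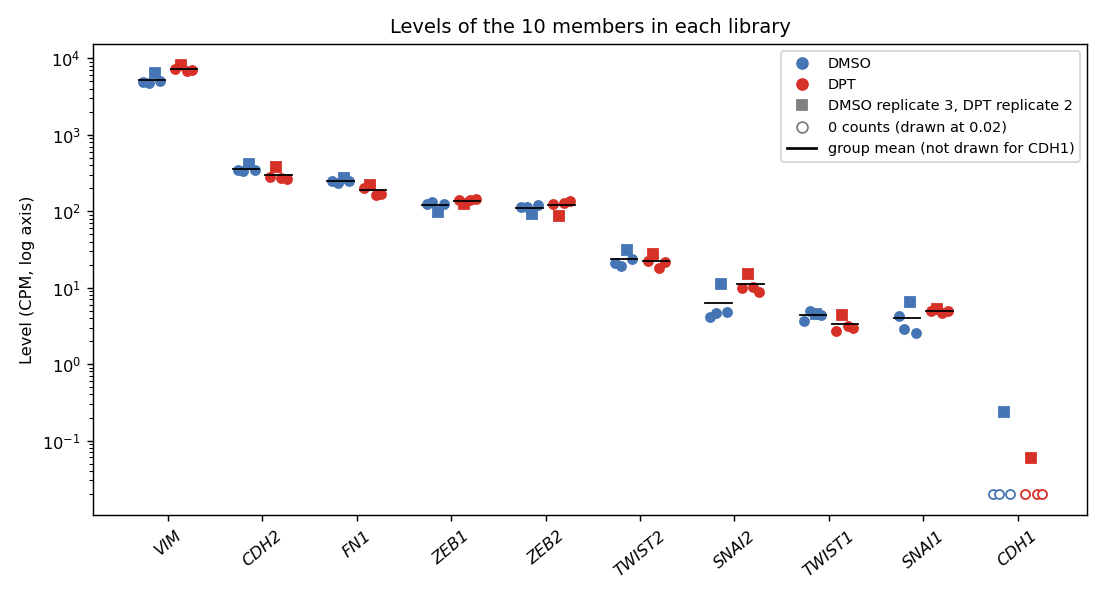
Levels of the 10 members in each library, in TMM-normalized CPM on a log axis, with group means as bars (not drawn for CDH1, whose libraries were mostly at 0). VIM and FN1 are the members whose groups do not overlap, and DMSO replicate 3 lies nearest to the DPT libraries for VIM and SNAI2.

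Per length, the members spanned the whole range of expression. VIM had a mean of 2779 ± 422 FPKM (SD, n = 4) in DMSO and ranked between the 7th and 11th most abundant gene of a library. CDH2 followed at 101 ± 10.4 FPKM and FN1 at 34.8 ± 2.22 FPKM. ZEB1 (19.5 to 26.8 FPKM), ZEB2 (21.4 to 25.2 FPKM) and TWIST2 (14.7 to 23.8 FPKM) overlapped in DMSO and could not be ordered. SNAI2 (2.08 to 5.55 FPKM), TWIST1 (2.34 to 3.76 FPKM) and SNAI1 (1.47 to 3.78 FPKM) formed a low tier and overlapped likewise. In DPT that low tier opened: SNAI2 at 4.21 to 8.23 FPKM lay above SNAI1 at 2.79 to 3.09 FPKM and TWIST1 at 1.98 to 3.29 FPKM in every library. FN1 at 33.1 to 38.0 FPKM in DMSO lay above both ZEB genes, and at 23.9 to 32.7 FPKM in DPT it overlapped ZEB1 (25.2 to 32.1 FPKM) and ZEB2 (20.8 to 30.1 FPKM).

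CDH1, which encodes the adherens junction protein E-cadherin, was not measurable. It had 4 counts in DMSO replicate 3, 1 count in DPT replicate 2 and 0 in each of the other 6 libraries. The group sums of 4 counts (exact Poisson 95% interval 1.09 to 10.2) and 1 count (0.0253 to 5.57) did not differ beyond counting error, which is all that these intervals cover. A count of 0 allows a level of up to 3 counts, which was 0.175 to 0.203 CPM in these libraries. The only counts of CDH1 were thus in the 2 libraries that stood apart. No ratio of CDH1 to CDH2 was formed, since it would rest on zeros.

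CDH2, the gene of N-cadherin, was the abundant cadherin in both groups. Its levels in DMSO replicates 1 to 4 were 343, 331, 410.0 and 346 CPM, and in DPT replicates 1 to 4 they were 284, 376, 268 and 265 CPM. DPT replicates 1, 3 and 4 lay below every DMSO library, while DPT replicate 2 lay inside their range. The log2 fold change was -0.26 ± 0.12 (SE) with an edgeR adjusted p of 0.206, so CDH2 did not pass the test in 8 libraries. It passed with the term for the 2 libraries (-0.27, edgeR adjusted p = 0.000237) and without DPT replicate 2 (-0.39, edgeR adjusted p = 0.0118). Over all alternatives the adjusted p ran from 1.77e-05 to 0.418.

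VIM encodes vimentin, the intermediate filament protein of mesenchymal cells. It lies on chromosome 10 from 17228259 to 17237593 on the plus strand (GRCh38, GENCODE 29) and is overlapped on the other strand by the gene VIM-AS1. Its levels in DMSO replicates 1 to 4 were 4883, 4820.3, 6413 and 4991 CPM, and in DPT replicates 1 to 4 they were 7149, 8069, 6918 and 6975 CPM. Every DPT library lay above every DMSO library, and DMSO replicate 3 stood between the groups. VIM rose 1.38-fold (log2 fold change 0.46 ± 0.10, SE; edgeR adjusted p = 0.0182). Without DMSO replicate 1, 2 or 4 the adjusted p was 0.0590 to 0.0653, and with the term for the 2 libraries it was 1.14e-07. Over all alternatives it ran from 4.35e-10 to 0.0751. VIM took 0.475 to 0.638% of all counts in DMSO and 0.704 to 0.815% in DPT.

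FN1 encodes fibronectin, the matrix glycoprotein on which collagen fibrils are laid down. It lies on chromosome 2 from 215360440 to 215436172 on the minus strand. Its levels in DMSO replicates 1 to 4 were 251, 231, 269 and 245 CPM, and in DPT replicates 1 to 4 they were 199, 222, 163 and 166 CPM. The groups did not overlap, with DPT replicate 2 closest to the DMSO libraries. FN1 fell by 0.41 on the log2 scale (SE 0.11, 1.33-fold lower, edgeR adjusted p = 0.0359). This call was lost on leaving out any 1 library except DPT replicate 2, with adjusted p between 0.0544 and 0.110, and with scaling by library totals alone (0.0501). With the term for the 2 libraries it was 7.08e-05. VIM and FN1 were the 2 of 9 tested members whose groups did not overlap, against 18.2% of all tested genes (9.50% with DPT above and 8.73% with DPT below).

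The sequences just before the starts of VIM and FN1 are shown because these 2 members, both read as mesenchymal effectors, moved in opposite directions. They are credited to RefSeq (GRCh38.p14) and run 5′ to 3′ along each gene's strand. The first is chr10:17227991-17228240 on the plus strand, within VIM-AS1 but outside its exons, and the second chr2:215436173-215436318 on the minus strand, up to the edge of FN1 as GENCODE draws it and overlapping an exon of the antisense gene AC012462.3. Capitals mark any match, on either strand, to CACCTG (the E-box bound by SNAIL and ZEB proteins), TGANTCA (AP-1), CCAAT (the CCAAT box) or GGGCGG (the GC box).
VIM: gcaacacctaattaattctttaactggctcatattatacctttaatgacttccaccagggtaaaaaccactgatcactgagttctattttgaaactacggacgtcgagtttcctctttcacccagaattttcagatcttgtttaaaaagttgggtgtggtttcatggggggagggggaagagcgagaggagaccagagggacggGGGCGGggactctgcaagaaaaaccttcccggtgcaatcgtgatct
FN1: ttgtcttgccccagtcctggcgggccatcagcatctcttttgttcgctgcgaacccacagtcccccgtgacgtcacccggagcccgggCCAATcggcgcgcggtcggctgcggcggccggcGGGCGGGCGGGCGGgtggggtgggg

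In the 250 bases before its RefSeq start, VIM held 1 GC box, 46 bases before the start. FN1 held a CCAAT box 162 bases before its start and overlapping GC boxes at 129, 125 and 121 bases, all printed above, with further GC boxes at 107, 102 and 49 bases. CACCTG was in neither window, and it was in 17.5% of 35116 RefSeq promoters of the same length. Among the 6 members with an entry (ZEB1, ZEB2, TWIST2, VIM, CDH2 and FN1), some with several starts, 1 held CACCTG at any start, namely ZEB1, and 1 held TGANTCA, namely CDH2, against 6.57% of all promoters. A CCAAT box was in 3 of the 6 and a GC box in 5 of the 6, against 32.0% and 42.6% of all promoters. The 17 tested collagen genes with an entry held CACCTG in 3, TGANTCA in 0, CCAAT in 7 and GGGCGG in 13. These matches describe letters only, and their bearing on the levels was not tested.

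SNAI2 encodes SLUG, the SNAIL-family repressor also known from neural crest. Its levels in DMSO replicates 1 to 4 were 4.13, 4.61, 11.3 and 4.81 CPM, on 61, 68, 194 and 73 counts. In DPT replicates 1 to 4 they were 9.97, 15.3, 10.3 and 8.76 CPM, on 163, 256, 172 and 143 counts. All 4 DPT libraries lay above DMSO replicates 1, 2 and 4, and DMSO replicate 3 lay inside the DPT range. The log2 fold change of 0.82 ± 0.33 (SE, 1.77-fold) did not pass in 8 libraries (edgeR adjusted p = 0.143). It passed without DMSO replicate 3 (1.29, edgeR adjusted p = 0.00545), with the term for the 2 libraries (0.89, 0.000138) and in the other 6 libraries (1.10, 2.95e-05), and in no other alternative, where the adjusted p reached 0.304. Between the 2 libraries that stood apart the difference was 0.43, DPT replicate 2 being the higher. The 2 libraries themselves lay 0.97 above the other 6 on the log2 scale, against 0.89 between the treatments in the same model.

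SNAI1 encodes SNAIL, the founding member of the family. Its levels in DMSO replicates 1 to 4 were 4.20, 2.85, 6.48 and 2.57 CPM, and in DPT replicates 1 to 4 they were 4.96, 5.21, 4.66 and 4.96 CPM. The DPT libraries lay close together, inside a DMSO range that DMSO replicate 3 stretched upward. The log2 fold change was 0.29 ± 0.27 (SE, edgeR adjusted p = 0.551). In the other 6 libraries it was 0.60 with an adjusted p of 0.0456, while between the 2 libraries that stood apart it was -0.31.

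ZEB1 and ZEB2 encode zinc-finger repressors that silence CDH1 and microRNA genes of the epithelial state. ZEB1 was at 125, 133, 98.3 and 125 CPM in DMSO replicates 1 to 4 and at 138, 124, 139 and 146 CPM in DPT replicates 1 to 4. ZEB2 was at 113, 115, 91.8 and 119 CPM and at 125, 87.4, 129 and 134 CPM. In both genes the lowest library of each group was the one that stood apart. The log2 fold changes in 8 libraries were 0.18 ± 0.10 (SE, edgeR adjusted p = 0.266) for ZEB1 and 0.11 ± 0.14 (SE, edgeR adjusted p = 0.651) for ZEB2. With the term for the 2 libraries ZEB1 passed at 0.19 (edgeR adjusted p = 0.00592), and ZEB2 did not at 0.10 (0.125). In the other 6 libraries both passed, at 0.14 (0.0290) and 0.16 (0.0159).

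TWIST1 and TWIST2 encode basic helix-loop-helix factors of mesoderm. TWIST1 was at 3.66, 4.95, 4.50 and 4.42 CPM in DMSO replicates 1 to 4 and at 2.69, 4.44, 3.17 and 2.94 CPM in DPT replicates 1 to 4. Its log2 fold change of -0.40 ± 0.20 (SE, edgeR adjusted p = 0.232) passed in neither the model with the term (0.106) nor the other 6 libraries (0.0594). TWIST2 was at 21.1, 19.2, 30.6 and 23.8 CPM and at 22.3, 27.7, 17.9 and 21.8 CPM. Its groups overlapped throughout, the log2 fold change was -0.08 ± 0.17 (SE, edgeR adjusted p = 0.811), and its sign turned to 0.07 without DMSO replicate 3 and to 0.01 without DPT replicate 3.

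**Figure D2:**
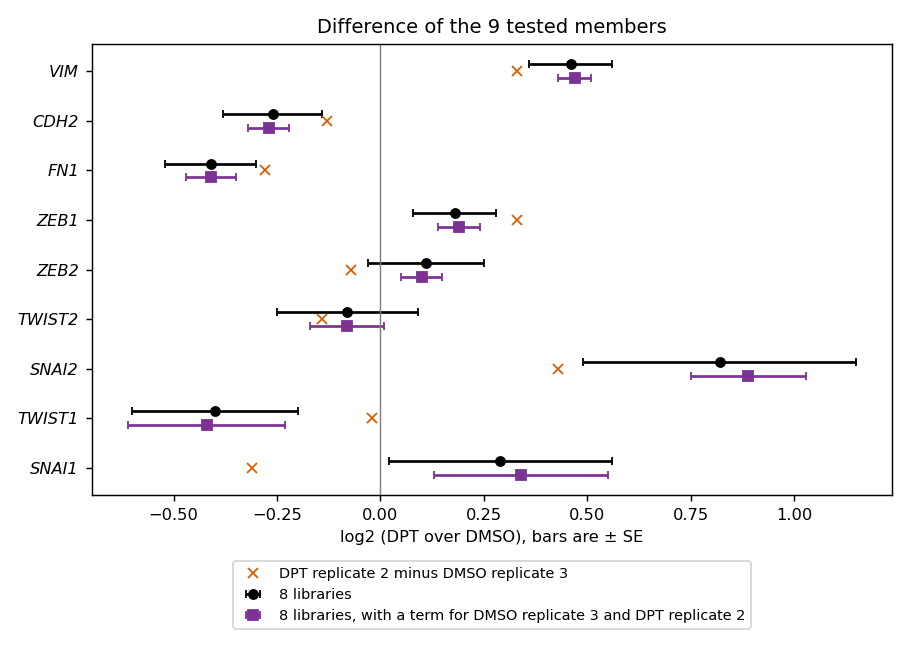
Fitted log2 fold change of DPT over DMSO for the 9 tested members with its standard error, in 8 libraries (black) and with a term for the 2 libraries that stood apart (purple), with the difference between those 2 libraries as crosses. VIM at 0.46 and FN1 at -0.41 are the members called in 8 libraries, and the term shortens the bars more than it moves the points.

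The members were next set beside the collagens, since VIM and SNAI2 had been seen to part from them in earlier results. Of 44 collagen genes, 23 were tested, and 2 rose and 9 fell, against the backgrounds of 5.68% and 5.29%. The median log2 fold change of the 23 was -0.25, against -0.00 over all tested genes. With the term for the 2 libraries 4 were higher, close to the background of 16.9%, and 13 lower, against 17.0%. Leaving out 1 library moved the number that fell to between 5 and 11, and it moved by over 1.5 times without DMSO replicate 1, 2 or 4 or DPT replicate 3 or 4.

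Types I and III form the strong fibres of connective tissue, and their chains COL3A1 and COL1A2 had the lowest log2 fold changes of the 23. COL1A2 was at 322, 299.7, 352 and 322 CPM in DMSO replicates 1 to 4 and at 151, 175, 104 and 123 CPM in DPT replicates 1 to 4. COL3A1 was at 33.2, 30.0, 35.7 and 33.2 CPM and at 12.3, 16.3, 8.85 and 11.0 CPM. The groups were wide apart in both genes. COL3A1 fell by 1.45 on the log2 scale (SE 0.16, edgeR adjusted p = 0.00120) and COL1A2 by 1.23 (SE 0.15, edgeR adjusted p = 0.00157). COL1A1 was at 12.2, 12.8, 27.3 and 13.7 CPM and at 7.22, 14.7, 6.10 and 6.62 CPM. Like SNAI2 it was high in the 2 libraries that stood apart, by 1.11 on the log2 scale, yet its difference under DPT had the other sign. That log2 fold change, -0.93 ± 0.35 (SE), did not pass in 8 libraries (edgeR adjusted p = 0.118), and passed without DPT replicate 2 (0.0143), with DESeq2 (0.0399) and with the term (2.45e-06).

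Type V collagen, which starts fibrils, had 3 tested chains. COL5A1 was at 429, 403, 648 and 444 CPM in DMSO replicates 1 to 4 and at 296, 482, 231 and 246 CPM in DPT replicates 1 to 4, again highest in the library of each group that stood apart. Its log2 fold change was -0.62 ± 0.24 (SE, edgeR adjusted p = 0.136), and it passed without DPT replicate 2 (-0.90, 0.00628) and with the term (-0.65, 3.28e-06). COL5A2 differed by 0.03 ± 0.25 (SE, edgeR adjusted p = 0.956) and COL5A3 by 0.57 ± 0.19 (SE, edgeR adjusted p = 0.0873). COL5A3 passed as higher with the term (0.56, edgeR adjusted p = 0.0175) and in the other 6 libraries (0.80, 0.000923). The basement membrane chain COL4A1 fell by 0.41 (SE 0.08, edgeR adjusted p = 0.0102). It overlaps COL4A2 on the opposite strand, and their reads may not be separated. COL6A1, a chain of beaded filaments, fell by 0.29 (SE 0.07, edgeR adjusted p = 0.0295), a call lost without DMSO replicate 1, 2 or 4 or DPT replicate 3 or 4 (0.0625 to 0.0986).

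The collagens called higher in 8 libraries were the transmembrane types XIII and XVII, which sit at cell adhesions and not in fibrils. With the term, the type V chain COL5A3 and COL27A1 (0.20, edgeR adjusted p = 0.0275) were higher as well. COL13A1 was at 2.17, 2.30, 2.74 and 2.04 CPM in DMSO replicates 1 to 4 and at 8.08, 8.33, 6.64 and 5.94 CPM in DPT replicates 1 to 4, and rose 3.12-fold (edgeR adjusted p = 0.00103). COL17A1, a hemidesmosome component of epithelia, was at 5.42, 5.15, 5.14 and 4.29 CPM and at 11.3, 7.25, 14.3 and 14.1 CPM, and rose 2.35-fold (edgeR adjusted p = 0.00786). No DPT library overlapped a DMSO library in either gene. Of fibroblast markers, DCN and LUM were at 0 in every library, PDGFRA was at most 0.239 CPM, MFAP5 at most 0.120 CPM and FAP at most 1.73 CPM. THY1 was present in every library, at 31.7 to 52.3 CPM, and was lower with the term (-0.33, edgeR adjusted p = 0.00267). The summed level of all 8 fibroblast markers, 3 of them tested, was 351 to 432 CPM in DMSO and 144 to 229.7 CPM in DPT, and most of it was COL1A2, which is on that list. In bulk RNA, fewer cells of a type and less RNA per cell cannot be told apart.

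**Figure D3:**
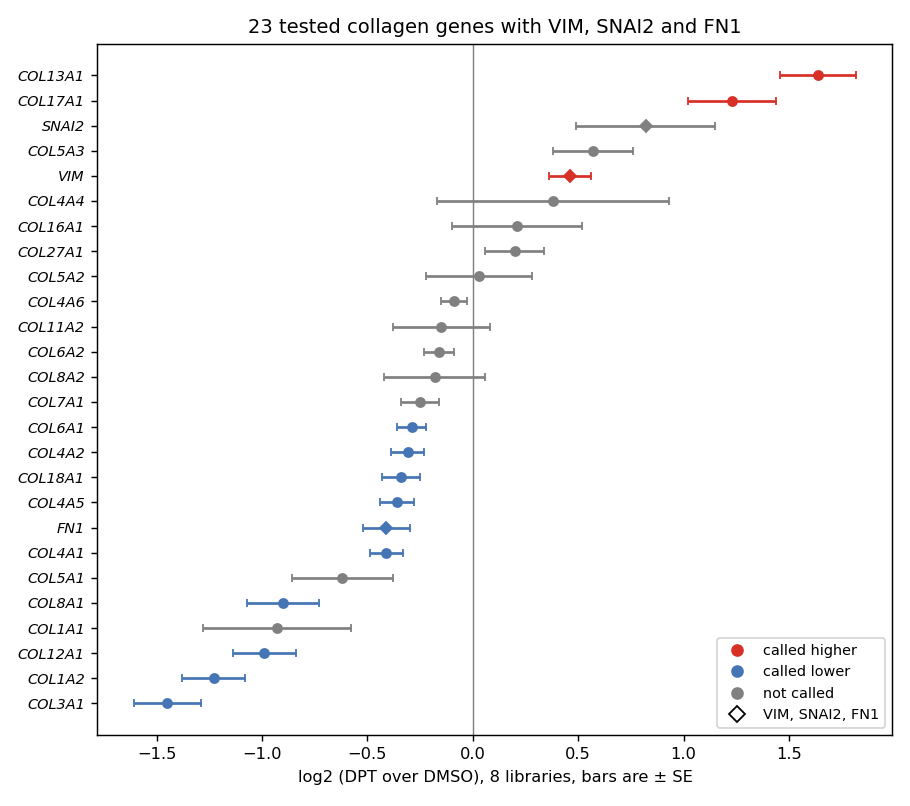
Fitted log2 fold change of DPT over DMSO with its standard error for the 23 tested collagen genes, with VIM, SNAI2 and FN1 as diamonds. The collagens run from COL3A1 at -1.45 to COL13A1 at 1.64, with 9 called lower, 2 called higher and 12 that did not pass. COL1A1 at -0.93 and COL5A1 at -0.62 did not pass and lie among those called lower.

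Ratios within a library, given as a description since the genes were chosen for their difference, show how far the members parted from COL1A2. The log2 ratio of VIM to COL1A2 was 3.92, 4.01, 4.19 and 3.95 in DMSO replicates 1 to 4 and 5.56, 5.53, 6.06 and 5.82 in DPT replicates 1 to 4. For SNAI2 to COL1A2 it was -6.24, -5.98, -4.94 and -6.03 and then -3.91, -3.50, -3.32 and -3.80. Both ratios were higher in each DPT library than in any DMSO library, by 1.72 and 2.17 on average, and between the 2 libraries that stood apart by 1.34 and 1.44. FN1 fell, and still parted from COL1A2. Its log2 ratio to COL1A2 lay between -0.40 and -0.36 in all 4 DMSO libraries, DMSO replicate 3 included, and between 0.34 and 0.65 in DPT. The ratio of VIM to FN1 went from 4.28 to 4.58 in DMSO up to 5.16 to 5.41 in DPT. The mesenchymal genes VIM, FN1 and COL1A2 were thus spread along a scale, with FN1 between the other two.

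**Figure D4:**
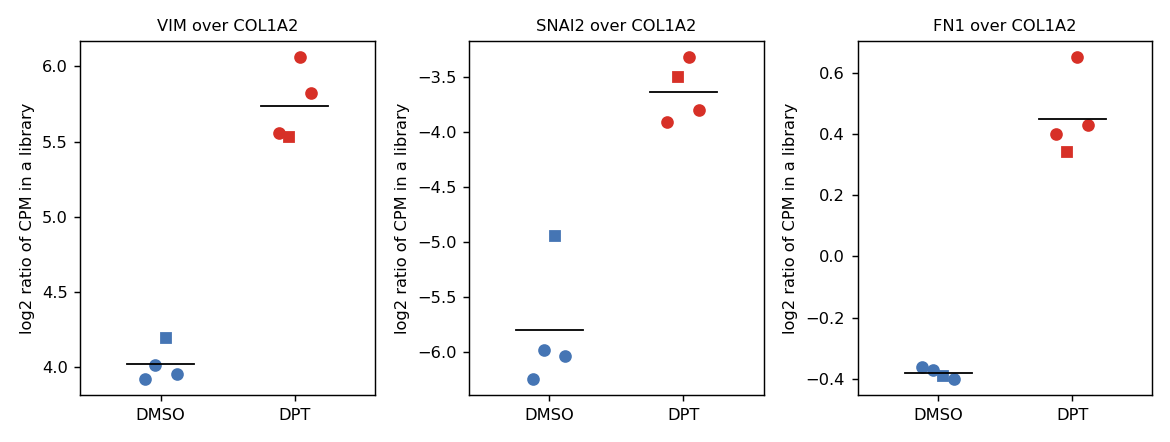
Log2 ratios of VIM, SNAI2 and FN1 to COL1A2 within each library. The DMSO and DPT libraries do not overlap in any of these ratios, and the VIM to COL1A2 ratio moves from a mean of 4.02 to 5.74.

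Treatment and the standing apart of the 2 libraries were fitted together as 2 axes. Collagens were found in every sign combination that held a member, and also below 0 on both axes, where no tested member lay. SNAI2, SNAI1 and VIM were above 0 on both, with VIM 0.30 and SNAI1 0.57 higher in the 2 libraries. CDH2 (0.37), FN1 (0.24), TWIST1 (0.32) and TWIST2 (0.47) were higher in the 2 libraries and had a treatment estimate below 0. ZEB1 (-0.28) and ZEB2 (-0.45) were lower in the 2 libraries, with a treatment estimate above 0. COL1A1, COL5A1, COL3A1 and COL1A2 had the same signs as CDH2 and FN1, COL13A1 (0.30) those of VIM and SNAI2, and COL17A1 (-0.45) those of ZEB1 and ZEB2, whereas COL12A1 (-0.48) and COL8A1 (-0.52) were lower on both axes. The 2 libraries were set apart from the data itself, so these values on that axis carry no test.

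**Figure D5:**
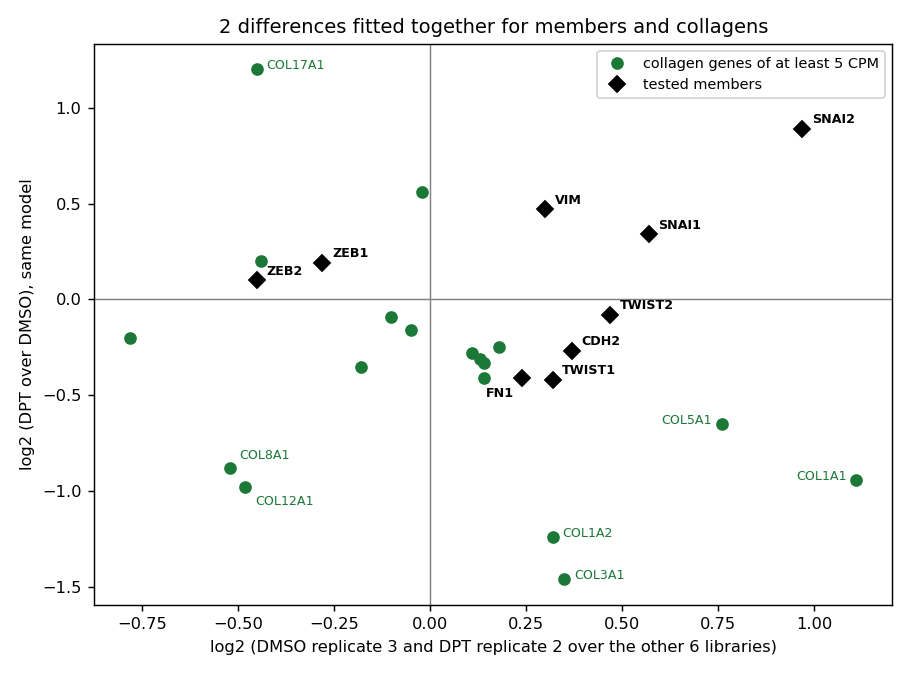
Each point is a gene, placed by its log2 difference between the 2 libraries that stood apart and the other 6 (horizontal) and between DPT and DMSO (vertical), from 1 model. SNAI2 lies at the upper right (0.97, 0.89), COL1A1 at the lower right (1.11, -0.94), and COL12A1 and COL8A1 at the lower left.

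The genes most like VIM in log2 CPM over the 8 libraries, among 10327 genes of at least 5 CPM, were ZNF185 (Pearson r = 0.998), DDX39A (0.996), LCP1 (0.993), RGS4 (0.993) and CDC42EP3 (0.989). Those most like SNAI2 were POLR1E (0.991), TOMM34 (0.991), SMAD7 (0.990), GADD45B (0.989) and IFRD2 (0.986). VIM and SNAI2 had an r of 0.959 with each other. Of 18 collagens at that level, 16 had an r below 0 with VIM and 16 with SNAI2. The lowest was COL12A1 with VIM (-0.985) and COL8A1 with SNAI2 (-0.949), and the highest was COL5A3 with each (0.719 and 0.641), while COL1A2 had -0.726 and -0.557. These correlations hold the treatment and the 2 libraries together, and 8 libraries are few points. The 5 genes like VIM had log2 fold changes of 0.38 to 1.94 and were all called. The 5 like SNAI2 had 0.26 to 0.54, and none was called. Both sets were picked for likeness over these same libraries, treatment included, so their direction is no separate result.

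Counts of calls in the lists that follow stand against the same shares over all tested genes, 5.68% higher and 5.29% lower in 8 libraries and 16.9% and 17.0% with the term for the 2 libraries, and none was tested against them. Other transcription factors tied to EMT were read from a list of 17, of which 11 were tested. In 8 libraries 3 rose and 0 fell (median 0.13 on the log2 scale), and the numbers were the same with the term, where the share over all genes is higher. FOXC2, a forkhead factor of mesoderm, had 2, 5, 5 and 3 counts in DMSO replicates 1 to 4 and 32, 20, 20 and 18 in DPT replicates 1 to 4. It rose 5.48-fold (edgeR adjusted p = 0.00438) from this low level. HMGA2, a chromatin protein that induces SNAIL genes, rose 1.49-fold (edgeR adjusted p = 0.0240), and SOX9, a partner of SLUG in neural crest, 1.31-fold (edgeR adjusted p = 0.0206). The HMGA2 call was lost when any 1 library other than DMSO replicate 3 and DPT replicate 2 was left out (0.0548 to 0.0765), and the SOX9 call without DMSO replicate 1, 2 or 4 or DPT replicate 1 or 4 (0.0504 to 0.0692).

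Factors that hold the epithelial state had few or no counts in most cases, with 6 of 13 tested. ELF3, an ETS factor of epithelia, was at 3.18, 3.66, 1.81 and 3.23 CPM in DMSO replicates 1 to 4 and at 0.428, 0.420, 0.239 and 0.552 CPM in DPT replicates 1 to 4. It fell by 2.83 on the log2 scale (SE 0.33, edgeR adjusted p = 0.00150), the 1 call of the list in 8 libraries. With the term 1 gene was also higher, KLF5 (0.51, edgeR adjusted p = 0.00632), and in the other 6 libraries FOXA1 as well (1.11, edgeR adjusted p = 0.0256), both named after their values were seen. ESRP1, FOXA2, GRHL2 and OVOL2 were at 0 in every library. Of 26 epithelial junction and keratin genes 20 were tested, 0 rose and 3 fell, and with the term for the 2 libraries 3 were higher, near the 16.9% of all genes, and 9 lower, against 17.0%. PKP2, a desmosome plaque gene, fell by 1.00 (SE 0.14, edgeR adjusted p = 0.00295). KRT18, a keratin of simple epithelia, fell by 0.65 (SE 0.13, edgeR adjusted p = 0.0149), and JUP, plakoglobin, by 0.41 (SE 0.11, edgeR adjusted p = 0.0397). The KRT18 call was lost without DPT replicate 3 or 4 (0.0519 to 0.0561), the JUP call without DMSO replicate 1, 2 or 4 or DPT replicate 3 or 4 (0.0805 to 0.118), and the list's number that fell ran from 1 to 6, with 6 without DPT replicate 2.

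Of 30 further mesenchymal effectors, 25 were tested, and 3 rose and 3 fell, against 5.68% and 5.29% of all genes. With the term 9 were higher and 13 lower, against 16.9% and 17.0%. MMP14, a membrane-bound matrix protease, rose 1.36-fold (edgeR adjusted p = 0.00270) and the integrin gene ITGB3 1.41-fold (edgeR adjusted p = 0.00737). PDGFRB, a growth factor receptor of mural cells and fibroblasts, was 2.46-fold lower (edgeR adjusted p = 0.000884), FBN1, a microfibril gene, by 0.97 (SE 0.16, edgeR adjusted p = 0.00592), and LOXL2, a collagen cross-linking enzyme, by 0.67 (SE 0.10, edgeR adjusted p = 0.00402). MMP14 and ITGB3 act in matrix proteolysis and adhesion, and FBN1 and LOXL2 build or cross-link matrix. The number that fell was 11 without DPT replicate 2. Among 12 genes of intermediate filaments and their linker plectin (PLEC), 11 tested, VIM was the 1 that rose and KRT18 the 1 that fell. With the term 2 were higher and 7 lower, PLEC among the lower, against 16.9% and 17.0% of all genes. Without DPT replicate 2, 6 were lower.

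Genes that make, modify and cross-link collagen had 22 of 23 tested, with 1 higher and 3 lower, against 5.68% and 5.29% of all genes. With the term 3 were higher and 8 lower, against 16.9% and 17.0%, so that the number higher was near the background. PLOD2, a lysyl hydroxylase, fell by 0.53 (SE 0.05, edgeR adjusted p = 0.000703), and SERPINH1, a collagen chaperone, by 0.25 (SE 0.07, edgeR adjusted p = 0.0428), with LOXL2 as above. LARP6, which binds the 5′ stem-loop of type I collagen messages, rose 1.33-fold (edgeR adjusted p = 0.0286). LARP6 thus moved against COL1A2 and COL3A1 under DPT. The LARP6 call (0.0505 to 0.0905) and the SERPINH1 call (0.0752 to 0.126) were lost when any 1 library other than DMSO replicate 3 and DPT replicate 2 was left out. The number that fell was 6 without DPT replicate 2.

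Transforming growth factor beta is a main inducer of SNAI1, SNAI2, FN1 and collagen genes, and all 18 genes of its list were tested, with 2 higher and 2 lower, against 5.68% and 5.29% of all genes, and a median of -0.03. SMURF2, a ubiquitin ligase that limits the receptor, was at 58.3, 60.3, 78.7 and 55.0 CPM in DMSO replicates 1 to 4 and at 111, 138, 124 and 111 CPM in DPT replicates 1 to 4. It rose 1.92-fold (edgeR adjusted p = 0.00231), and the receptor gene TGFBR2 rose 1.41-fold (edgeR adjusted p = 0.00689). LTBP2, a matrix binding protein, fell by 0.26 (SE 0.06, edgeR adjusted p = 0.0251), and TGFBI, a matrix protein induced by the ligand, by 0.60 (SE 0.16, edgeR adjusted p = 0.0441). The TGFBI call was lost when any 1 library other than DPT replicate 2 was left out (0.0671 to 0.130), and the LTBP2 call without DMSO replicate 1, 2 or 4 or DPT replicate 3 or 4 (0.0621 to 0.0865). Without DMSO replicate 3 the number higher was 4. With the term 5 were higher and 5 lower, against a background of 34.0% in either direction.

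Partners and regulators of SNAIL proteins, 18 genes all tested, had 0 higher and 2 lower in 8 libraries, near the background of 11.0%, and 2 higher and 5 lower with the term, near its background of 34.0%. AJUBA, a LIM protein that recruits repressors to SNAIL, fell by 0.62 (SE 0.06, edgeR adjusted p = 0.000483). CTBP1, a corepressor, fell by 0.21 (SE 0.05, edgeR adjusted p = 0.0355), a call lost when any 1 library other than DMSO replicate 3 and DPT replicate 2 was left out (0.0553 to 0.116).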

How the data were processed

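RNA was selected on oligo(dT) beads, per the labels' protocols. The deposited table gave an expected count and an FPKM value per gene and library, both computed by the authors, per the file headers, with fractions in 10.8% of the expected counts. The build hg38 and the tools RSEM, HISAT2, DESeq2, StringTie 1.3.1 and fastp 0.18.0 are named in the submitters' processing notes. The sources used here do not say whether strand was used in counting, and 6 of 10 members have a gene on the other strand whose reads may be mixed with theirs.

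Expected counts were rounded and fitted with edgeR 4.0.16 in R 4.3.3 (filterByExpr with its count minimum of 10 and total minimum of 15, TMM, quasi-likelihood test, treatment term only, all 8 libraries), with Benjamini-Hochberg adjustment over 12648 genes. With 200 genes changed 2-fold in simulated counts of this comparison over 12648 genes, 167 were recovered, with 10 false calls. The simulated counts held no shared shift of DMSO replicate 3 and DPT replicate 2 and no change smaller than 2-fold. These numbers therefore do not give the rates for the real libraries or for smaller changes. Levels between genes used the authors' FPKM. Log2 CPM had a prior count of 2. For 4 symbols with 2 entries each, ITGB3 and PDGFRA among them, the entry of highest mean level was used. Positions come from GENCODE 29.

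The members and lists were chosen with earlier results of these data known. Named genes were all members, chosen collagens and every collagen called higher, up to 3 higher and 3 lower calls per list by adjusted p, and the 5 genes most like VIM and SNAI2. A result that the rule took is not reported here. The interferon and mitosis lists were added to describe the 2 libraries that stand apart. Alternatives were DESeq2 1.42.0, limma voom 3.58.1, other scalings and filters, a replicate block, a term for those 2 libraries, the other 6 libraries, and leaving out each library. A planned test of the CDH1 to CDH2 ratio was not made, since CDH1 was at 0 in 6 libraries.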

Additional observations from a re-analysis of the deposited data

Results flagged for a closer look

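In 36 groups of 4 libraries (18 genes, the tested members and named collagens), 6 had a library farther from the nearest other than Dixon's critical value at the 95% level allows, which chance gives in about 1 in 20 groups. Of these, 5 were DMSO replicate 3 and 1 was DPT replicate 2. SNAI2 was at 11.3 CPM in DMSO replicate 3, against 4.13 to 4.81 CPM in the other DMSO libraries. VIM was at 6413 CPM there, against 4820.3 to 4991. COL1A1 was at 27.3 CPM in DMSO replicate 3, against 12.2 to 13.7, and at 14.7 CPM in DPT replicate 2, against 6.10 to 7.22. COL5A1 was at 648 CPM in DMSO replicate 3, against 403 to 444, and COL6A1 at 197 CPM, against 174 to 178.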

How the results depend on the processing

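Over all genes 718 rose and 669 fell. Leaving out 1 library gave 332 to 1183 higher and 311 to 1108 lower, the term for DMSO replicate 3 and DPT replicate 2 gave 2140 and 2156, and the other 6 libraries gave 2158 and 2169. For the members, 1 higher and 1 lower became 0 to 2 and 0 to 2 without 1 library, 3 and 2 with the term, and 5 and 2 in the 6 libraries, and scaling by library totals gave 0 lower. For the collagens, 2 higher and 9 lower became 2 to 3 and 5 to 11 without 1 library, and 4 higher with the term and 4 in the 6 libraries. Over the other lists, 10 distinct genes higher and 13 lower became 6 to 15 and 7 to 30 without 1 library, 27 and 43 with the term, and 27 and 45 in the 6 libraries, and DESeq2 gave 21 lower. The replicate block gave 171 higher and 174 lower over all genes, 0 and 0 members, 4 collagens lower, and 4 higher and 7 lower in the other lists. With the block VIM had an edgeR adjusted p of 0.0751 and FN1 0.120. Same-numbered libraries deviated together with r of 0.204, -0.314, -0.396 and 0.209, and 0 of 4 numbers matched best both ways. DMSO replicate 3 and DPT replicate 2 deviate most and carry different numbers, so these correlations cannot decide whether the numbers pair libraries. TWIST2 ran from -0.20 to 0.07 without 1 library and turned sign to 0.07 without DMSO replicate 3 and to 0.01 without DPT replicate 3, and COL5A2 ran from -0.10 to 0.18 (-0.06, -0.08, -0.10 and -0.04 without DMSO replicates 1 and 2 and DPT replicates 3 and 4). Of 720 values (40 genes, 18 alternatives), 611 kept direction and side of the threshold, 86 lost a call, 17 gained one and 6 reversed. Fits that leave out a library have fewer samples, and the cause of the other changes was not tested. The median of all genes moved by at most 0.04, with library totals alone. SNAI1, SNAI2 and TWIST1 rest on 39 to 256 counts per library, which limits their precision, and the alternatives planned for the CDH1 to CDH2 ratio were not run because it could not be formed.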

Other observations

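Chains of 1 collagen were present at unequal levels. Type I collagen is built from COL1A1 and COL1A2 chains, and COL1A2 was 12.5 to 30.8 times COL1A1 per length (FPKM) over the 8 libraries, lowest within each group in the library that stood apart. COL5A1 was 45.9 to 135 times COL5A2 in FPKM. Among other cadherins on the lists, CDH11 was tested at a mean of 8.99 FPKM in DMSO, with a log2 fold change of -0.26 ± 0.24 (SE, edgeR adjusted p = 0.542), and CDH3 and CDH6 had mean levels of 0.101 and 0.0146 CPM in DMSO and were not tested.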
